A study of Homo sapiens with 4 samples.

Results

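LGALS1, the gene of galectin-1, and CALD1, MACF1 and KATNAL1, 3 genes of the actin and microtubule cytoskeleton, were followed through knockdown of MYC in OCI-Ly10 cells. They were measured by 8 of the 15154 features of the array: 2 for LGALS1, 3 for CALD1, 1 for MACF1 and 2 for KATNAL1. The 4 genes were taken because they stood among the 12 named genes with the highest mean log2 ratio over the arrays, among those called higher with the same sign on every array. That mean is therefore given here as a description only. All 4 were among the rows called in that contrast, as the choice required, against 15.8% of 6798 rows in either direction (limma, adjusted p under 0.05). With 1 array left out, all 4 stayed under that threshold without the 8 h array, KATNAL1 alone did without the 24 h array over no siRNA, and 0 did without either of the others.

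OCI-Ly10, an established human cell line, comes from a diffuse large B-cell lymphoma with the expression type of activated B cells. RNA of cells electroporated with a pool of siRNAs against MYC (4 uM) was labelled with Cy5 and hybridised with control RNA in Cy3, on 4 arrays without a dye swap. On 2 arrays (24 h and 8 h after electroporation) the control cells had received a nonspecific siRNA against Renilla luciferase, called control siRNA here, and on the other 2 (24 h and 6 h) they had been electroporated in buffer with no siRNA. Cells of both channels were thus electroporated on every array, and the 6 h and 8 h arrays are called early. Each value is the authors' log ratio of the 2 channels, taken as log2 of MYC siRNA over control, so that 1 is a doubling and a positive value means more transcript with MYC siRNA. The base and direction were taken from the values and dyes and are not stated in the sources used here. Because only ratios were used, levels of transcript, and the markers that would identify the line by level, could not be examined. In bulk RNA a change in the share of cells that express a gene and a change in RNA per cell cannot be told apart.

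MYC itself, the targeted transcript, had log2 ratios of -0.35 (24 h) and -0.94 (8 h) against control siRNA, and of -1.03 (24 h) and -1.26 (6 h) against no siRNA. All 4 of these gene means were below 0, and the direction of the ratios was chosen partly on this sign. The only feature value of MYC above 0 was 0.11 (feature 19381_1, 24 h against control siRNA). Feature 28401_1 was read against control siRNA alone, so the mean averaged different features by control. The array at 24 h against no siRNA had the widest spread over features (SD 0.447), against 0.288 to 0.327 on the other 3. Array medians lay between -0.034 and 0.014.

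Galectin-1 is a small lectin that binds beta-galactosides. It acts inside cells and, once secreted, crosslinks glycoproteins on the surface of lymphocytes, CD45, CD43 and CD7 among them, and it is abundant in Hodgkin lymphoma cells. Actin filaments and microtubules give lymphocytes their shape, carry their movement and organise the contact of a B cell with antigen. Caldesmon, the product of CALD1, binds actin, tropomyosin and calmodulin and restrains actomyosin. MACF1 is a spectraplakin, a giant protein that links actin filaments to microtubules, and KATNAL1 is a relative of the katanin ATPase that severs microtubules.

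Upstream sequence was examined for the cytoskeleton genes because MYC with its partner MAX binds the E-box CACGTG. These genes also lay above 0 together, as their choice required. RefSeq windows of 250 bases before a start (GRCh38.p14) were matched for 3 of the 4 genes, 4 for CALD1, 3 for MACF1 and 2 for KATNAL1. LGALS1 was not matched. The E-box CACGTG, which reads the same on both strands, was found in 0 of these 9 windows, against 6.34% of 35116 windows. Its variant CACGCG, on either strand, was also in 0 of 9, against 9.72%, and so was the CArG box of serum response factor, against 1.16%. The GC box GGGCGG, on either strand, was in 3 of 9 windows, 1 per gene, against 42.6%. Those 3 windows are shown, 5′ to 3′ on the strand of the gene, with matches to the GC box in capitals.
CALD1, chr7:134779384-134779633, plus strand: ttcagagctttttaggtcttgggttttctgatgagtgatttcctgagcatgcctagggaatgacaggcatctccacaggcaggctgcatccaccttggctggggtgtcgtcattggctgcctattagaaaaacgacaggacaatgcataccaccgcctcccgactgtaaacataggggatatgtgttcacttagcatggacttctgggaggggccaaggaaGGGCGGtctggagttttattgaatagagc
MACF1, chr1:39408823-39409072, plus strand: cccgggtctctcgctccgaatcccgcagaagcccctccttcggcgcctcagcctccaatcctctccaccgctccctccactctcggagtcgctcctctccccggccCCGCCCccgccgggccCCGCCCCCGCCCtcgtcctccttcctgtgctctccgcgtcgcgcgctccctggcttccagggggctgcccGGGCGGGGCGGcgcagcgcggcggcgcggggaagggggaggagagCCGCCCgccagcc
KATNAL1, chr13:30307552-30307801, minus strand: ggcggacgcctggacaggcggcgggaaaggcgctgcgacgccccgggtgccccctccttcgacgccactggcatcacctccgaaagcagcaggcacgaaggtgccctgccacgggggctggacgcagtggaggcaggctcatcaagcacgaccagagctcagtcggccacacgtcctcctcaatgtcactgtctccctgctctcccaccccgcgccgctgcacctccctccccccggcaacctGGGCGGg
The window of MACF1 held 6 GC boxes, 2 pairs of which abutted or shared a base, and those of CALD1 and KATNAL1 held 1 each. GC content of these 3 windows was 78% (MACF1), 70.8% (KATNAL1) and 50.4% (CALD1), against a median of 58% over all windows. They were picked for holding the GC box, itself made of G and C only. The windows not shown had 40% and 48.4% for MACF1, 67.2% for KATNAL1, and 44.4%, 44% and 35.6% for CALD1. These matches are letters in a window, and no binding was measured.

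All 27 values of the 8 features lay above 0, and 5 of 32 possible values were empty, all for CALD1. At gene level, as the mean over features on each array, the 4 genes lay above 0 on all 4 arrays, as the choice required. Of all rows 19.4% did so. Averaged over the arrays LGALS1 stood at 0.87 ± 0.64, KATNAL1 at 0.60 ± 0.22, MACF1 at 0.60 ± 0.34 and CALD1 at 0.57 ± 0.26 (SD, n = 4 each). As folds these means are 1.83, 1.52, 1.51 and 1.49. The choice took the 12 highest such genes. Just inside its edge was SERTAD2 at 0.573, and just outside was NDE1, a dynein regulator that binds microtubules, at 0.569. The order of KATNAL1, MACF1 and CALD1 is not separated beyond their spread.

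**Figure D1:**
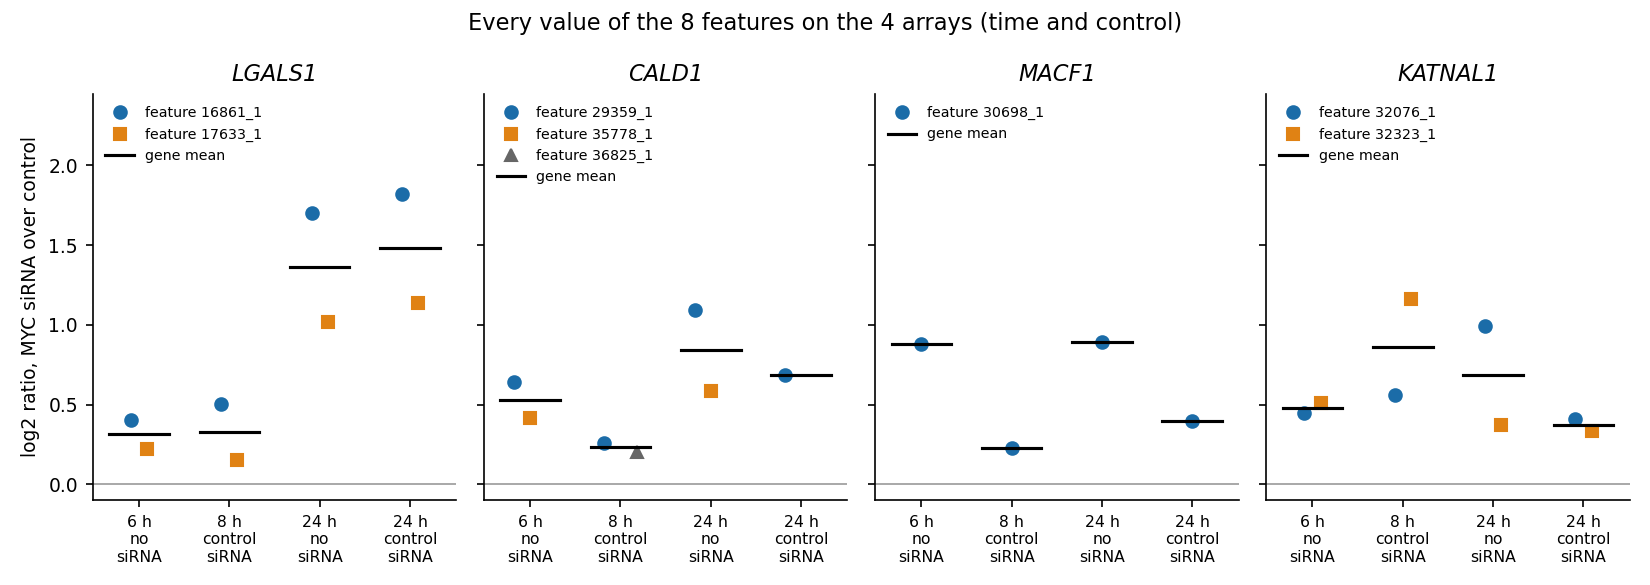
Log2 ratio of MYC siRNA over control (vertical axis) for each feature (points) of LGALS1, CALD1, MACF1 and KATNAL1 on each of the 4 arrays (horizontal axis, by time and control). Black bars are gene means per array, and the LGALS1 means at 24 h, 1.48 and 1.36, lie above those of the early arrays, 0.33 and 0.31, while both 24 h means of CALD1 lie above both early ones and those of MACF1 and KATNAL1 do not. Of all rows 17.4% have both 24 h values above both early ones.

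LGALS1 was higher at 24 h than early. Its gene-level log2 ratio was 1.48 at 24 h against 0.33 at 8 h with control siRNA as the control, and 1.36 at 24 h against 0.31 at 6 h with no siRNA as the control. Both 24 h values lay far above both early ones, and the 2 kinds of control gave nearly the same value at each time. Of all rows 17.4% had both 24 h values above both early ones, by any amount. Mean transcript with MYC siRNA was 2.68 times control at 24 h and 1.25 times control early. Among 3954 named genes LGALS1 ranked 2 at 24 h and 212 early. The difference of 24 h minus early was 1.10 ± 0.18 (SE, 95% interval 0.72 to 1.48; 1.15 against control siRNA and 1.05 against no siRNA), with an adjusted p of 0.0285 in limma. LGALS1 was 1 of 2 rows called higher at 24 h, 0.0294% of 6798, and of 8 called in either direction (0.118%), with 687 at an unadjusted p under 0.05. LGALS1 entered the choice through its 24 h values, since its early mean of 0.32 lay below the edge of the choice at 0.573, and its values by time were known when it was chosen. The p for time is therefore not independent of the choice.

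The fit of time had 1 residual degree of freedom a row and drew 17.5 prior degrees of freedom from the spread over all rows. With arrays centred the prior ones were infinite (adjusted p in limma for LGALS1 0.000108). With the median over features they were 1770 (2.17e-05), and with arrays scaled 4.83. Over 12 alternatives the difference ran from 0.89 to 1.31 and the adjusted p in limma from 2.17e-05 to 0.988, passing in 6. It was lost when arrays were scaled to a common spread (0.93, adjusted p = 0.614), with time as the only term (1.10, adjusted p = 0.747) and without any 1 of the arrays. With 3 arrays the control term had to be dropped as well, so that loss cannot be put down to the missing array. Without the 8 h array the difference was 1.11 (adjusted p = 0.988) and without the 6 h array 1.09 (adjusted p = 0.967). Without the 24 h array against control siRNA it was 1.04 (adjusted p = 0.147), and without that against no siRNA 1.16 (adjusted p = 0.206).

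Both features of LGALS1 gave this time course. Feature 16861_1 read 1.82 at 24 h against 0.50 at 8 h with control siRNA, and 1.70 at 24 h against 0.41 at 6 h with no siRNA. At 24 h it ranked 7 of 12697 features against control siRNA and 2 of 12028 against no siRNA. Feature 17633_1 read lower throughout, with 1.14 at 24 h against 0.15 at 8 h with control siRNA, and 1.02 at 24 h against 0.22 at 6 h with no siRNA. The 24 h values of either feature exceeded both of its early values, an order found at gene level in 17.4% of all rows. Fitted as single features among 10161, they differed between 24 h and early by 1.31 (limma adjusted p = 0.00157) and 0.89 (adjusted p = 0.0324). Like the p of the gene mean, these are not independent of the choice of LGALS1. The 2 features are listed under the same transcript accession and were read on the same arrays, so the features are not separate samples.

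**Figure D2:**
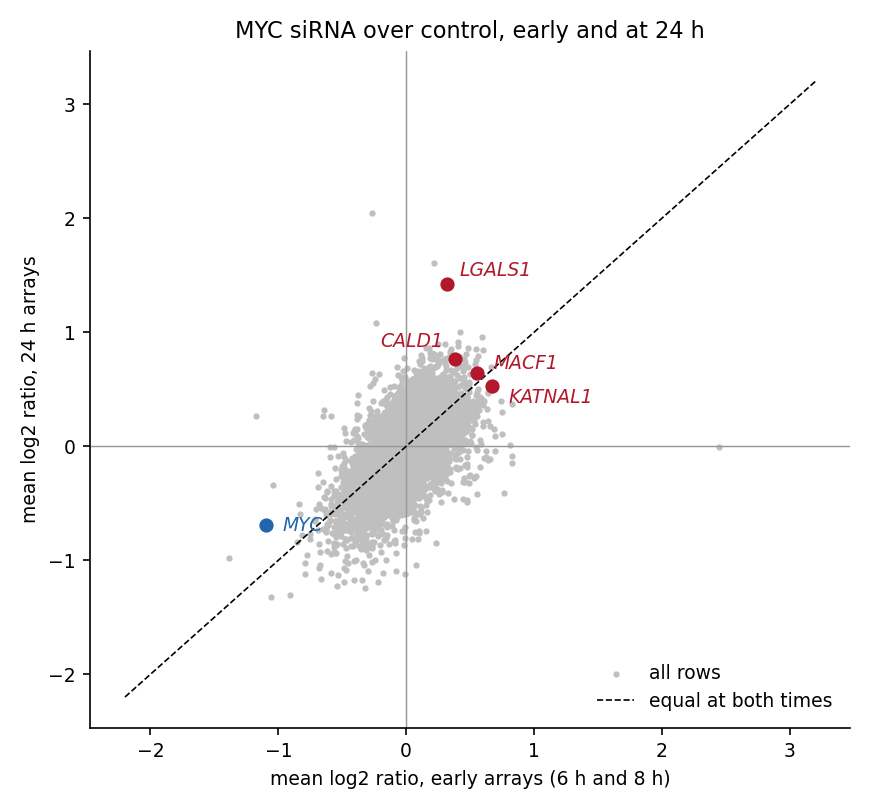
Mean log2 ratio of the 2 arrays at 24 h (vertical axis) against that of the 2 early arrays (horizontal axis) for all 6798 rows in grey, with LGALS1, CALD1, MACF1 and KATNAL1 in red and MYC in blue. LGALS1 lies well above the dashed line of equal ratios (1.42 at 24 h and 0.32 early), MACF1 (0.64 and 0.55) lies near it, and KATNAL1 (0.53 and 0.67) lies below it.

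CALD1 read higher at 24 h than early without passing the test. Its gene-level log2 ratio was 0.69 at 24 h against 0.23 at 8 h with control siRNA, and 0.84 at 24 h against 0.53 at 6 h with no siRNA. Both 24 h values lay above both early values, which was so for 17.4% of all rows. The difference was 0.38 ± 0.18 (SE, 95% interval -0.0013 to 0.77; limma adjusted p = 0.494). Both early values lay below the edge of the choice at 0.573, so this test of time is not independent of the choice. Feature 29359_1 supplied a value on every array, 0.69 (24 h) and 0.26 (8 h) against control siRNA, and 1.10 (24 h) and 0.64 (6 h) against no siRNA. Feature 35778_1 was read against no siRNA alone, at 0.59 (24 h) and 0.42 (6 h), and feature 36825_1 on the 8 h array alone, at 0.21. The gene mean of CALD1 thus averaged different features on different arrays, and over the complete feature the difference was 0.44 (adjusted p = 0.401).

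MACF1 read higher against no siRNA than against control siRNA without passing the test. It read 0.89 (24 h) and 0.88 (6 h) against no siRNA, and 0.40 (24 h) and 0.23 (8 h) against control siRNA. Both values against no siRNA lay above both against control siRNA, as they did for 15.6% of all rows. The difference of no siRNA minus control siRNA was 0.57 ± 0.18 (SE, 95% interval 0.19 to 0.96), with an adjusted p of 0.199 in limma that did not pass. In that contrast 6 rows were called, 0.0883% of 6798, and 0 of the 4 genes. Among 3954 named genes MACF1 ranked 28 for this difference. Both values against control siRNA lay below the edge of the choice at 0.573, so MACF1 entered through its values against no siRNA. The interval, p and rank for this difference are therefore not independent of the choice. The time difference of MACF1 was 0.09 ± 0.18 (SE, 95% interval -0.29 to 0.47; adjusted p = 0.925). Its sign turned when arrays were scaled to a common spread (-0.13), with the 8 h array left out (-0.23) and with the 24 h array over no siRNA left out (-0.16). Each kind of control was used on 1 pair of arrays, with its own early time, so the control, the pair of arrays and the early time cannot be told apart. MACF1 rests on 1 feature.

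KATNAL1 read high on the 8 h array. Its gene-level log2 ratio was 0.37 (24 h) and 0.86 (8 h) against control siRNA, and 0.68 (24 h) and 0.48 (6 h) against no siRNA. The 24 h and early values overlapped, and the time difference took opposite signs against the 2 controls, -0.49 against control siRNA and 0.20 against no siRNA. In the joint fit it was -0.14 ± 0.20 (SE, 95% interval -0.56 to 0.28; limma adjusted p = 0.878). The 2 features of KATNAL1 did not share a time course. Feature 32323_1 read 0.33 (24 h) and 1.16 (8 h) against control siRNA, and 0.37 (24 h) and 0.51 (6 h) against no siRNA. Feature 32076_1 read 0.41 (24 h) and 0.56 (8 h) against control siRNA, and 0.99 (24 h) and 0.45 (6 h) against no siRNA. The first was highest at 8 h and the second at 24 h against no siRNA. Their means over the arrays were nearly equal, 0.60 ± 0.39 and 0.60 ± 0.27 (SD, n = 4 each).

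By control, the other genes did not pass either. The difference of no siRNA minus control siRNA was -0.07 for LGALS1 (95% interval -0.45 to 0.32; limma adjusted p = 0.961), 0.23 for CALD1 (-0.16 to 0.61; adjusted p = 0.774) and -0.03 for KATNAL1 (-0.45 to 0.38; adjusted p = 0.979). Whether the time course of LGALS1 differs from those of the other genes was not tested.

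Likeness between genes was measured as the Euclidean distance between their log2 ratios over the 4 arrays, among 3954 named genes. The 5 genes nearest to LGALS1 were CD1C, which presents lipid antigens, ITGAX, an integrin alpha chain, the scavenger receptor gene CD36, SAT1, a polyamine acetyltransferase, and GLRX, glutaredoxin. Their distances ran from 0.81 to 0.94, against a median of 2.11 over all genes, and each of the 5 read lower than LGALS1 on both 24 h arrays. ITGAX read 0.83 (24 h) and 0.14 (8 h) against control siRNA, and 0.88 (24 h) and 0.18 (6 h) against no siRNA. CD36 read 0.86 (24 h) and 0.29 (8 h) against control siRNA, and 0.77 (24 h) and 0.12 (6 h) against no siRNA. Each of the 5 lay higher at 24 h, by 0.48 (CD1C) to 0.70 (ITGAX), and none passed for time (limma adjusted p between 0.129 and 0.363). The 5 were picked by these same values, so their rise at 24 h follows from the choice and is a description only. At 24 h LGALS1 ranked 2 against control siRNA and 1 against no siRNA, so nearly every named gene read lower.

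**Figure D3:**
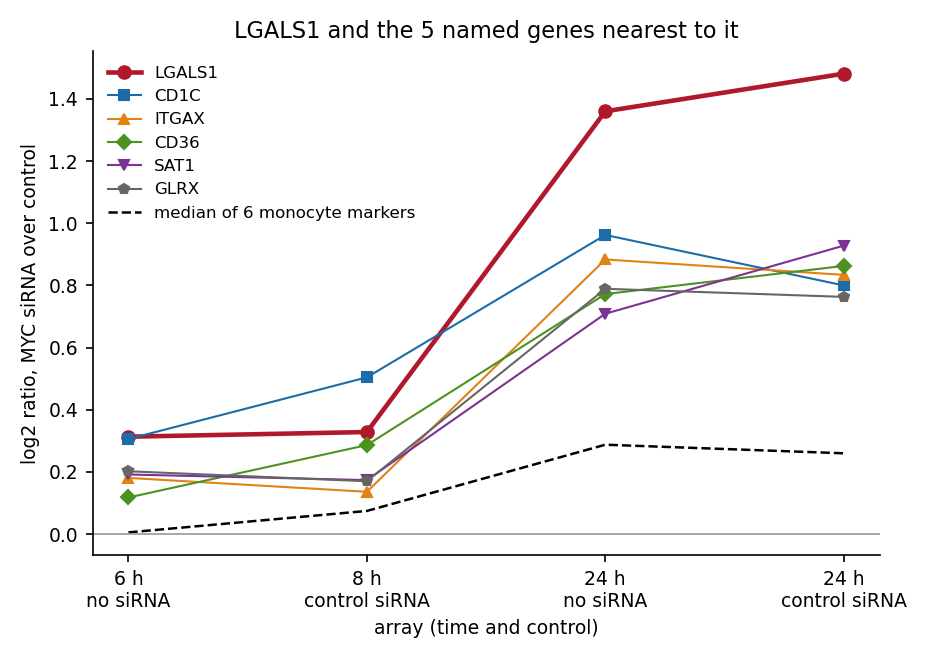
Log2 ratio of MYC siRNA over control (vertical axis) on each array (horizontal axis, by time and control) for LGALS1, for the 5 named genes nearest to it and for the median of 6 monocyte markers (dashed). At 24 h LGALS1 reaches 1.36 against no siRNA and 1.48 against control siRNA, while the monocyte median reaches 0.29 against no siRNA and 0.26 against control siRNA.

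ITGAX and CD36 are also expressed by monocytes, as is galectin-1, so markers of other cells are set beside LGALS1. Of 15 monocyte markers 6 had values on all arrays, and their median log2 ratio was 0.26 (24 h) and 0.07 (8 h) against control siRNA, and 0.29 (24 h) and 0.006 (6 h) against no siRNA. Thus the monocyte markers were also higher on both 24 h arrays, though 0 of 6 passed for MYC siRNA or for time, and their means over the 4 arrays lay between 0.07 and 0.28. TYROBP, an adaptor of myeloid receptors, read 0.42 (24 h) and 0.08 (8 h) against control siRNA, and 0.64 (24 h) and -0.004 (6 h) against no siRNA. Of 23 stromal markers 12 were measured and 0 passed. Their array medians were 0.02 (24 h) and -0.08 (8 h) against control siRNA, and 0.07 (24 h) and 0.004 (6 h) against no siRNA. T-cell markers had 14 of 15 measured and 0 called. Their array medians were 0.17 (24 h) and 0.10 (8 h) against control siRNA, and 0.13 (24 h) and -0.08 (6 h) against no siRNA. Medians of the stromal and T-cell lists were thus also higher on both 24 h arrays, by less than those of monocyte markers. Of 15 B-cell markers 13 were measured and CD72 (0.41 ± 0.32) and CD79A (0.41 ± 0.27) were called higher (SD, n = 4 each), while 11 did not pass. These 2 calls are 15.4% of the measured B-cell markers, against 5.56% of all rows called higher and 15.8% in either direction. With any 1 array left out 0 were called. The B-cell median was 0.14 (24 h) and 0.06 (8 h) against control siRNA, and 0.03 (24 h) and -0.02 (6 h) against no siRNA. The part of these marker shifts in the LGALS1 result was not tested.

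The neighbours of the 4 genes in function were drawn from lists of galectins, galectin-1 ligands and 9 cytoskeleton groups, each counted without the 4 genes. In the MYC siRNA contrast 5.56% of all rows were called higher and 10.2% lower, and the median over all rows was -0.003. Of 62 measured cytoskeleton genes 4 were called higher (6.45%) and 2 lower (3.23%), while 56 did not pass, with a median of 0.07. Of the 62, calls came to 4 higher and 1 lower when the 8 h array was left out, the lower one in the group of tropomyosin, calponin and myosin regulation, and to 1 higher and 0 lower when the 24 h array over no siRNA was. They came to 0 when either of the other arrays was omitted, with 0 (6 h array) and 4 (24 h array over control siRNA) calls over all rows. For time 0 of these 62 were called in limma. Few genes of some lists were measured: 0 of 15 other galectins and 0 of 6 other plakins, the family of MACF1, so LGALS1 and MACF1 cannot be set beside their relatives.

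Among microtubule genes, KATNA1, the catalytic subunit of katanin, averaged 0.14 ± 0.14 (SD, n = 4) and did not pass. Of 8 measured genes of microtubule ends and binding 1 was called (12.5%, against 15.8% of all rows in either direction and 5.56% called higher). This was NDE1, higher at 0.57 ± 0.41 (SD, n = 4; limma adjusted p = 0.0312). It read 0.41 (24 h) and 0.07 (8 h) against control siRNA, and 1.00 (24 h) and 0.79 (6 h) against no siRNA, so that, like MACF1, both of its values against no siRNA were the higher ones (difference 0.65, limma adjusted p = 0.129). That order held for 15.6% of all rows. MAPRE1, a plus-end binding protein, averaged -0.24 and CLIP1 0.22, and neither passed. Of tubulins and their cofactors 0 of 4 passed, with a median of -0.12. TUBB, a beta-tubulin, read -0.36 (24 h) and -0.01 (8 h) against control siRNA, and -0.41 (24 h) and 0.14 (6 h) against no siRNA, a time difference of -0.45 that did not pass (limma adjusted p = 0.393). TUBG1, gamma-tubulin, averaged -0.12. In the dynein list, BICD1 averaged -0.28 and DYNC1LI1 -0.14, and 0 of 2 passed.

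Among actin genes, LIMK1, the kinase that inactivates cofilin, rose by 0.46 (SD 0.28, n = 4; limma adjusted p = 0.031), and GSN, which encodes the severing and capping protein gelsolin, by 0.45 (SD 0.27, n = 4). GSN read 0.68 (24 h) and 0.19 (8 h) against control siRNA, and 0.69 (24 h) and 0.24 (6 h) against no siRNA. Its values at each time were close between controls, as those of LGALS1 were, but its time difference of 0.47 did not pass (adjusted p = 0.351). The remaining 16 of 18 measured genes of actin and its assembly did not pass, ACTG1 (0.20) and HCLS1 (0.19) among them, and the median was 0.11. The calls, both higher, came to 11.1% of this group, against 5.56% of all rows called higher and 15.8% in either direction. Without the 8 h array 2 genes of the group were called higher, and without any 1 of the other arrays 0 were. In the group of caldesmon itself, tropomyosin, calponin and myosin regulation, 0 of 6 passed with all arrays, with a median of 0.07.

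Among crosslinkers and membrane links, ADD2, beta-adducin of the spectrin skeleton, rose by 0.51 (SD 0.19, n = 4), while FSCN1, the actin bundler fascin, fell by 0.43 (SD 0.28, n = 4) and NF2, merlin, fell by 0.33 (SD 0.17, n = 4). With any 1 array left out, 0 genes of the group were called lower. Called higher was 1 gene without the 8 h array or the 24 h array over no siRNA, and 0 without either of the others. MARCKSL1, which binds actin at the membrane, averaged -0.51 without passing. It read -0.96 (24 h) and -0.14 (8 h) against control siRNA, and -0.91 (24 h) and -0.02 (6 h) against no siRNA, a time difference of -0.86 with an adjusted p of 0.0761 in limma. Of 18 measured genes in this group 15 did not pass, EZR at 0.25 among them, and the median was -0.02. The calls came to 16.7% of the group, against 15.8% of all rows.

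Of intermediate filaments and lamins 0 of 5 passed, with KRT8 at 0.27 and VIM, vimentin, at 0.20. Of 15 measured targets of serum response factor, a regulator of actin genes and of CALD1, CCN2 fell by 0.36 (SD 0.08, n = 4). This call, 6.67% of the group against 10.2% of all rows called lower and 15.8% in either direction, was lost with any 1 array left out. The other 14 did not pass, JUNB (0.28) and FOS (-0.27) among them, and the median was 0.02.

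Of 18 glycoproteins that bind galectin-1, 12 were measured. NRP1, neuropilin-1, fell by 0.38 (SD 0.12, n = 4) and IGLL1, a surrogate light chain of the pre-B-cell receptor, by 0.31 (SD 0.16, n = 4). These calls are 16.7% of the group, against 10.2% of all rows called lower and 15.8% in either direction. With any 1 array left out 0 were called, and with time and control as terms 2 were called higher and 2 lower. The remaining 10 did not pass, CD4 (0.33) and LAMB1 (0.28) among them, and the median was 0.01.

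**Figure D4:**
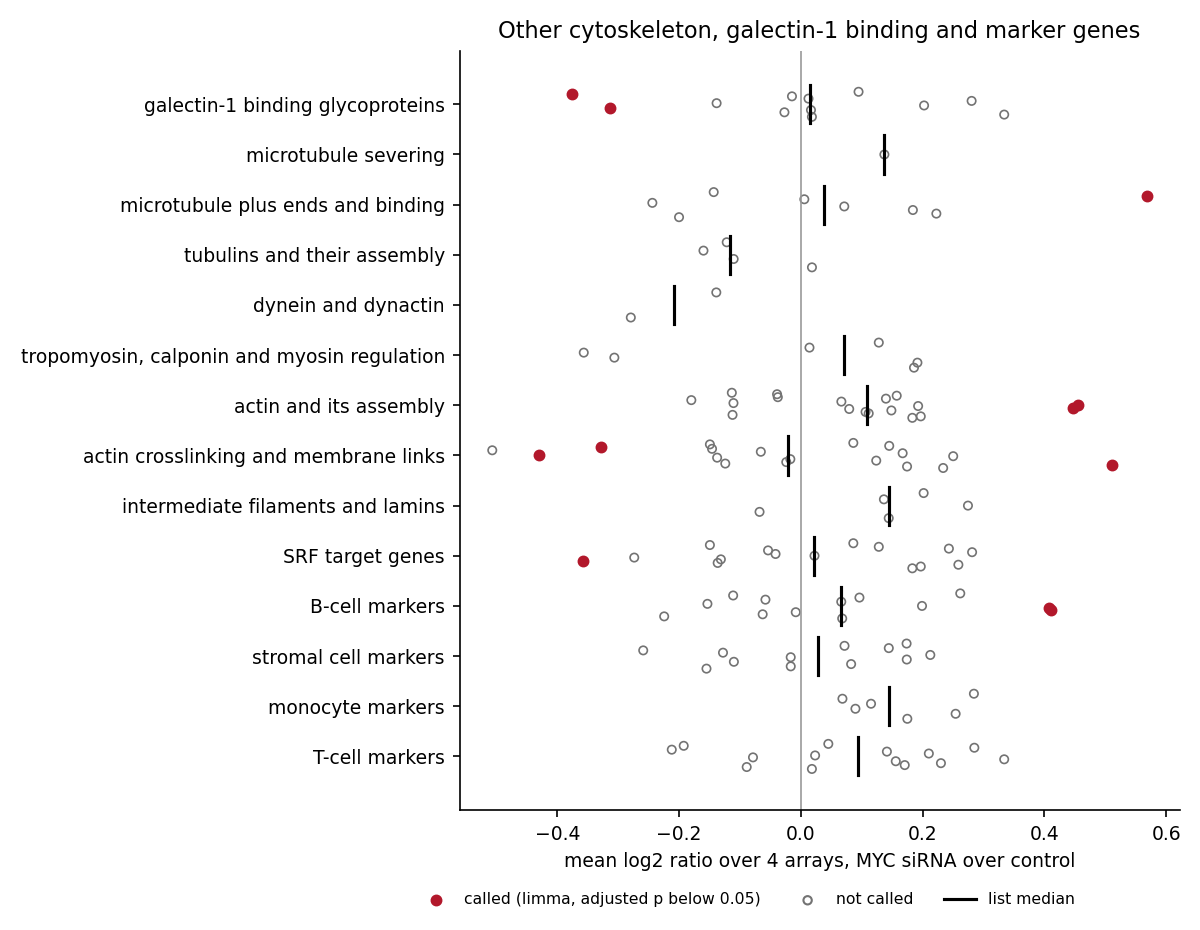
Mean log2 ratio over 4 arrays of each measured gene (points, horizontal axis) in each list (vertical axis), without LGALS1, CALD1, MACF1 and KATNAL1. Red points were called in limma, open points were not, and black bars are list medians, which lie between -0.21 (dynein and dynactin) and 0.15 (monocyte markers).

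The genes nearest to the cytoskeleton members were also found by distance over the 4 arrays. They were picked by these same values, so their short distances follow from the choice and are a description only. MACF1 lay closest to PTPRO, a receptor tyrosine phosphatase gene (distance 0.06), POM121, of the nuclear pore (0.07), and IL13, a cytokine gene (0.19), against a median of 1.41. CALD1 lay closest to FAM117B (0.13), DKK1, a Wnt inhibitor (0.15), and SOD3, extracellular superoxide dismutase (0.22), against a median of 1.30. KATNAL1 lay closest to BMF, which promotes apoptosis (0.23), the flippase gene ATP11B (0.37) and CD44 (0.38), against a median of 1.33. Among the 4 genes themselves the shortest distance was 0.46, between CALD1 and MACF1, and the longest 1.41, between LGALS1 and KATNAL1.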

How the data were processed

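The authors deposited, per array, processed log2 ratios of Cy5 (MYC siRNA) over Cy3 (control). The base and direction of the logs were inferred from the labelled dyes and the values, and the sources used here do not give how the ratios were normalized. Scanner intensities were not used here. Features with 1 symbol were averaged per gene and array, and 6798 rows with values on all 4 arrays were fitted with limma 3.58.1 (R 4.3.3): the mean over arrays, then time and kind of control together, with Benjamini-Hochberg adjustment over all rows and a threshold of 0.05. Arrays have no stated separate cultures, so the p-values cover only differences among these arrays, which may be technical. The 4 arrays are too few for a precise estimate, and depth has no counterpart here. The procedure was tested on simulated data. The 4 genes and all gene lists were chosen with earlier results of these data known. Named genes are the 4 genes, the genes nearest to each over the 4 arrays (5 for LGALS1, 3 for the others), called list genes up to 6 a list with up to 2 uncalled ones of largest size, and the genes at the edge of the choice (ranks 12 and 13). Promoters were matched by symbol to RefSeq windows. 1 group of related genes is not reported here.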

Additional observations from a re-analysis of the deposited data

Results flagged for a closer look

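The LGALS1 log2 ratio was larger at 24 h than early by 1.10, a difference between times that passed in limma (adjusted p = 0.0285). It was higher at 24 h against both controls, as were 27.4% of all rows. The call for time was lost in 6 of 12 alternatives, and its p is not independent of how the gene was chosen. Median time differences were 0.29 for the markers of monocytes, 0.08 for stromal, 0.07 for T-cell and 0.05 for B-cell markers. The part of these markers in the result was not tested.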

How the results depend on the processing

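The mean log2 ratios of the 4 genes kept their direction under all alternatives run (LGALS1 0.63 to 1.11, CALD1 0.48 to 0.69, MACF1 0.50 to 0.72, KATNAL1 0.51 to 0.68). Their adjusted p in limma ran from 0.034 to 0.087 without 1 array. For LGALS1 the difference of 24 h minus early was 0.93 with arrays scaled (limma adjusted p = 0.614), 1.10 with time alone (adjusted p = 0.747) and 1.04 to 1.16 without 1 array (adjusted p 0.147 to 0.988). For MACF1 it was -0.13 with arrays scaled and -0.23 to 0.41 without 1 array. For KATNAL1 it was 0.20 for feature 32076_1 and -0.33 to 0.048 without 1 array. The difference of no siRNA minus control siRNA was 0.24 for KATNAL1 feature 32076_1, and without 1 array it ran from -0.28 to 0.21 for KATNAL1, from -0.0013 to 0.45 for CALD1 and from -0.64 to 0.51 for LGALS1.

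Rows called for time, 8 in the report, were 61 with arrays centred, 0 with arrays scaled (534 at an unadjusted p under 0.05), 98 with the median over features, 26 with complete features, 74 with single features, 0 with time alone (437 unadjusted) and 0 to 3 without 1 array. Rows called for control, 6 in the report, were 87, 0 (614 unadjusted), 162, 37 and 57 under the same first 5 settings, 36 with values on at least 3 arrays, 0 with control alone (454 unadjusted) and 1 to 26 without 1 array. Rows called for MYC siRNA, 1073 in the report, were 1971 with single features, 1980 with time and control as terms and 0 to 441 without 1 array (1796 to 2179 unadjusted). Cytoskeleton genes called were 0 to 4 higher and 0 to 1 lower without 1 array, against 4 and 2 in the report, with 6 higher and 6 lower with time and control as terms and 5 higher and 1 lower with values on at least 3 arrays. For time and control, leaving out an array also meant fitting that term alone, with 1 residual degree of freedom as before and 4.81 to 8.5 prior ones for time, against 17.5. Prior degrees of freedom for time were infinite with arrays centred, 1770 with the median over features, 22.6 with complete features and 31.6 with single features. They were 4.83 with arrays scaled and 5.89 with time alone. The cause of the changes in calls was not tested. The arrays are paired by kind of control, and the fit of time holds that pairing as its control term; time alone is the fit without it. With 4 arrays and no scanner intensities, signal over background is not known.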
